A study of Mus musculus with 8 samples.

Results

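Non-starburst GABAergic amacrine nuclei of the adult mouse retina were taken from 8 single-nucleus RNA-seq (snRNA-seq) libraries by counts of unique molecular identifiers (UMIs, the molecules counted per gene). A barcode was kept as a nucleus if it had at least 1000 UMIs and at most 5% of them from mitochondrial genes, which left 39496 of 12695972 barcodes. A nucleus was then included if Gad1 and Gad2 together had at least 3 UMIs, Slc6a9 at most 1, Rbpms and Slc17a6 together at most 1, Lhx1 none, and if fewer than 2 of Chat, Slc5a7 and Slc18a3 were detected. This gave 1030 nuclei, 2.61% of those kept, called GABAergic nuclei here. The first condition left 1351 nuclei, the Slc6a9 condition removed 44, the ganglion cell condition 201, the Lhx1 condition 7 and the cholinergic condition 69. The nuclei were thus chosen by their own UMI counts of these 9 genes, so the levels of these genes are given as description and no test uses them.

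The study asked where Piezo1 and Piezo2 are expressed in the anterior visual pathway and whether the Cre driver used to delete Piezo2 from the oligodendrocyte lineage has effects in the retina. Retinae came from female mice at postnatal day 120 on a C57BL/6J background, and each library pooled 6 retinae. The 4 control libraries (replicates 1 to 4) were from Piezo2f/f mice without Cre, and the 4 cKO libraries (replicates 10 to 13) from Olig2-cre;Piezo2f/f mice, so both groups carried the floxed Piezo2 alleles. The lines were B6(SJL)-Piezo2tm2.2Apat/J and B6.129-Olig2tm1.1(cre)Wdr/J. Per the study, the cKO mice are also heterozygous for Olig2. No library was from mice with Olig2-cre alone, so genotype here joins Cre, Olig2 dose and loss of Piezo2. Olig2-cre deletes in cells of the Olig2 lineage. Olig2 had 0 UMIs in the GABAergic nuclei of every library, which does not show whether their precursors expressed it. Nuclei had been sorted as positive for NeuN and RBPMS to enrich retinal ganglion cells (RGCs), so the amacrine nuclei described here are those that passed such a gate and are no census of the retina. Control and cKO libraries carry separate runs of numbers and no date of preparation, so a batch between the groups cannot be told apart from genotype.

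Amacrine cells are inhibitory interneurons of the inner retina that shape the signals passed from bipolar cells to RGCs. GABAergic amacrine cells, many of which spread wide dendrites, make GABA with the enzymes encoded by Gad1 and Gad2, load it into vesicles with the transporter encoded by Slc32a1 and take it up again with membrane transporters such as that encoded by Slc6a11. Starburst amacrine cells release acetylcholine as well as GABA and serve motion direction selectivity, and glycinergic amacrine cells, mostly narrow in field, use the glycine transporter encoded by Slc6a9.

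Kept nuclei numbered 2716 to 5866 per library, with library medians of 3761 to 8733.5 UMIs. The GABAergic nuclei numbered 98, 137, 130 and 105 in control replicates 1 to 4 and 138, 104, 125 and 193 in cKO replicates 10 to 13, with library medians of 4711.5 to 9578 UMIs and a median over all of 6981.5 UMIs and 3049.5 genes. No GABAergic barcode was found as a GABAergic nucleus in another library, 7 had a barcode that was also a kept nucleus elsewhere, and 181 of 39315 distinct barcodes over all kept nuclei were shared. Doublets were not removed, and 32 of the GABAergic nuclei (3.11%) lay in the Scrublet score tail that held 4.09% of all nuclei. The 3 comparison classes were set by the same kind of rule and held 370 glycinergic amacrine, 69 starburst amacrine and 22473 RGC nuclei. Starburst nuclei numbered 1 to 21 per library, and cKO replicate 11 had 1.

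The amacrine label held against genes the rule did not use. Each level is the UMI count of a gene per 1000000 UMIs counted in the class (CPM), as mean ± SD over 8 libraries. Tfap2a, a transcription factor of amacrine cells, was at 142.8 ± 21.3 CPM in GABAergic nuclei and at 1.31 CPM in pooled RGC nuclei, and Tfap2a or Tfap2b had a UMI in 80.6% of GABAergic and 4.35% of RGC nuclei. Slc32a1 was at 122.6 ± 53.1 CPM, against 3.55 ± 1.20 CPM in RGC nuclei. Pax6, at 407 ± 36.0 CPM, was less particular, since pooled RGC nuclei had 332 CPM. Of the genes of the rule, Gad1 (chr2:70383416-70432372, GRCm39) was at 372 ± 71.5 CPM and Gad2 (chr2:22511862-22583886) at 217 ± 43.9 CPM, and 673 nuclei had UMIs of both, 302 of Gad1 alone and 55 of Gad2 alone. Gad2 was at 8.43 ± 13.5 CPM in starburst nuclei, where Gad1 was at 667 ± 248 CPM.

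The nuclei just inside and just outside the Gad threshold looked alike on genes outside the rule. The 427 with a Gad sum of 3 had 1480 CPM of Meis2, 129 CPM of Slc32a1 and 265 CPM of Tfap2b, and the 650 nuclei with a sum of 2 that met the other conditions had 1416, 116 and 271 CPM. Of photoreceptor transcripts, 5 rod genes summed to 481 CPM in GABAergic and 432 CPM in RGC nuclei, pooled over libraries. Marker sums of other cell types in GABAergic nuclei were 447 ± 236 CPM in control and 626 ± 223 CPM in cKO for the rod genes (242 to 779 and 410 to 933 CPM), 102 ± 78.5 and 85.4 ± 17.2 CPM for 4 Müller glia genes, and 161 ± 50.5 and 176 ± 46.4 CPM for 6 RGC genes, which summed to 1997 CPM in RGC nuclei. Rbpms and Slc17a6 are among these 6 RGC genes. The rule holds both low in GABAergic nuclei and they choose the RGC nuclei, so part of this gap was set in advance. The endothelial marker Cldn5 was at 0, but 3 endothelial genes summed to 16.3 CPM, and 3 horizontal cell genes to 19.1 CPM, of which Lhx1 was at 0 by the rule. The comparison classes held more of some markers. The rod sum was 1295 CPM in glycinergic and 832 CPM in starburst nuclei, the sum of 3 cone genes 318 CPM in glycinergic and 13.0 CPM in GABAergic nuclei, and the sum of 3 microglial genes 524 CPM in starburst nuclei. The part of these markers in the results was not tested.

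**Figure D1:**
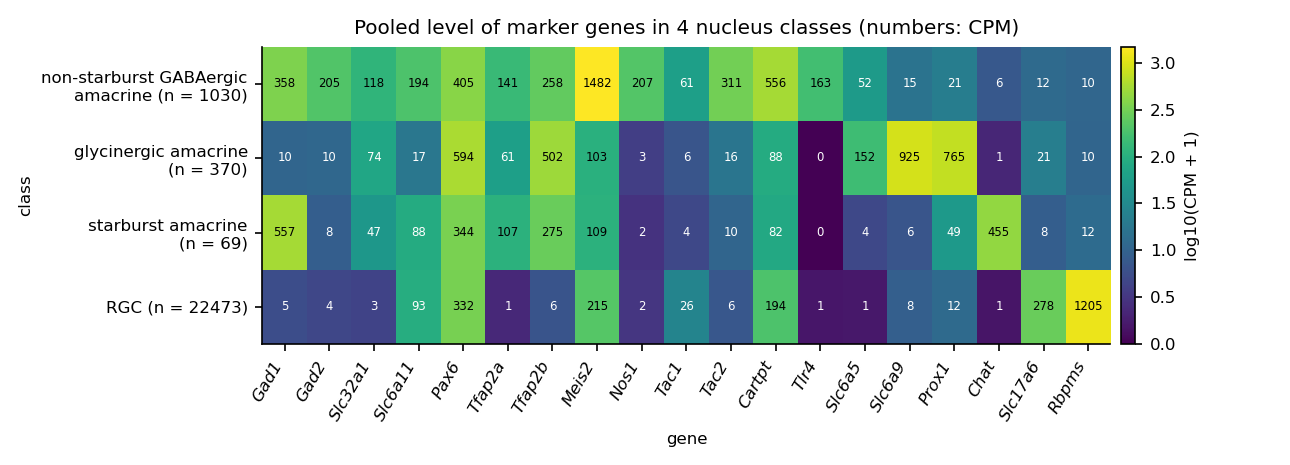
Pooled level of 19 genes (columns) in 4 classes of nuclei (rows), with the number in each cell in CPM and the colour showing log10(CPM + 1). Meis2 reached 1482 CPM in GABAergic nuclei against 103, 109 and 215 CPM in the glycinergic, starburst and RGC classes, and Tlr4 had 163 CPM against 0, 0 and 0.564 CPM.

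Most GABAergic nuclei carried Meis2, which encodes a homeodomain transcription factor. Meis2 (chr2:115693062-115896341) was at 1379, 1519, 1577 and 1666 CPM in control replicates 1 to 4 and at 1302, 1402, 1381 and 1509 CPM in cKO replicates 10 to 13. The groups overlapped, and the level varied by little between libraries (SD 121.1 CPM). At least 2 UMIs of Meis2 were found in 909 nuclei (88.3%), against 8.11% of glycinergic, 11.6% of starburst and 18.6% of RGC nuclei. With each nucleus thinned to 2000 UMIs, 83.9% of 1020 GABAergic nuclei kept a Meis2 UMI, and 9.58%, 10.1% and 17.0% in those classes.

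To see how the nuclei differ among themselves, subsets were set as nuclei with at least 2 UMIs of a marker. Levels in a subset are given against all other GABAergic nuclei as description. The leading genes of a subset were taken only from genes higher in every library compared, so that agreement is set by the choice. Of 8 markers of amacrine subtypes with at least 40 positive nuclei, 416 nuclei were positive for 1, 267 for 2 or more and 347 for none. Positive nuclei held more UMIs than the rest for most markers, with medians of 9444 against 6360 UMIs for Nos1 and 8356 against 6385 for Tac2, so membership depends in part on depth. The numbers given below for independent genes take no account of depth, and deep nuclei can raise the number positive for both.

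**Figure D2:**
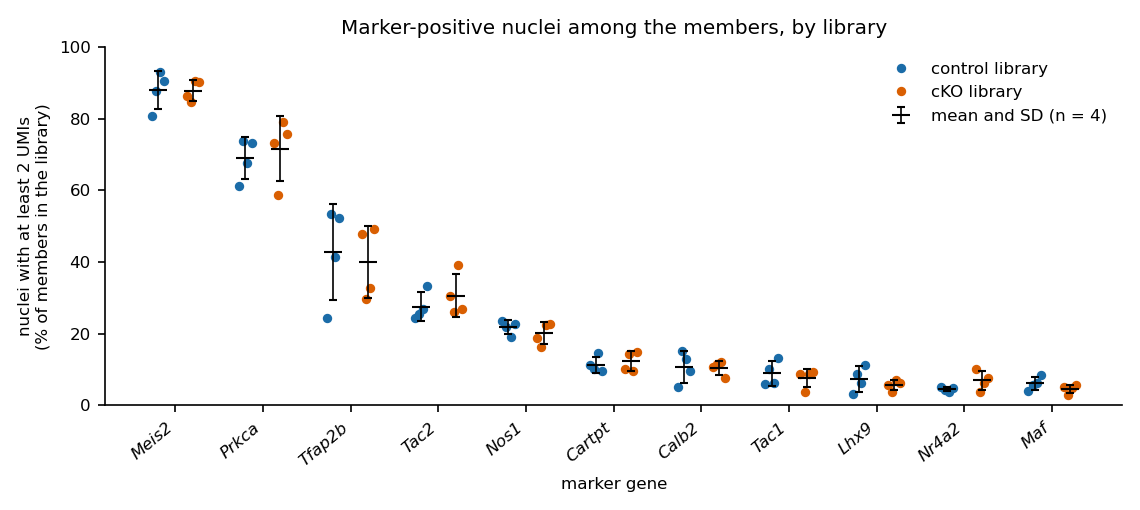
Share of GABAergic nuclei (members) with at least 2 UMIs of each marker, in percent of those in the library. Points are libraries (blue control, orange cKO) and bars give mean and SD (n = 4). Control and cKO points overlap for all 11 markers, from Meis2 at 88.3% of nuclei overall to Maf at 5.44%.

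Tac2, which encodes the precursor of the peptide neurokinin B, marked the largest of these 8 subsets, and was added to the markers after its level had been seen. Tac2 (chr10:127560347-127567638) was at 243, 271, 303 and 339 CPM in control replicates 1 to 4 and at 250.5, 491, 553 and 206 CPM in cKO replicates 10 to 13. The cKO libraries held both the highest values and the lowest. Tac2 was positive in 299 nuclei (29.0%), which held 97.9% of its UMIs, against 0 of 69 starburst, 0.541% of glycinergic and 0.338% of RGC nuclei. The genes with the highest ratio to the other nuclei were Atp6ap1l (80.5 against 1.52 CPM), Eomes, a T-box transcription factor gene (62.8 against 1.90), Frem3 (120 against 4.18), Tlr4 (438 against 21.6) and Gldn (50.2 against 3.23), each higher in all 8 libraries. The Tac2 nuclei also had more Gria1, the gene of an AMPA receptor subunit (647 against 351 CPM), in 8 of 8 libraries. Zfhx3, a zinc finger homeobox gene, was at 17.0 CPM in them and 1053 CPM in the others, lower in 8 of 8.

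Tlr4, known as the receptor for bacterial lipopolysaccharide on immune cells, lay within the Tac2 subset for most of its UMIs. In control replicates 1 to 4 Tlr4 (chr4:66745783-66849936) was at 174, 168, 117 and 205 CPM, and in cKO replicates 10 to 13 at 235, 169, 145 and 119 CPM. It had at least 2 UMIs in 215 of the 299 Tac2 nuclei, where 70.8 would be met if the genes were independent, and 1185 of its 1299 UMIs were there. Microglia are known to use Tlr4. The sum of 3 microglial genes was 58.2 CPM in GABAergic, 56.5 CPM in RGC and 524 CPM in starburst nuclei. Tlr4 was at 0.564 CPM in RGC nuclei and had 0 UMIs in starburst nuclei. Whether microglial RNA adds to the Tlr4 level was not tested.

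Nos1, the gene of neuronal nitric oxide synthase, marked 217 nuclei (21.1%). Nos1 (chr5:117918971-118096905) was at 277, 242, 200 and 154 CPM in control replicates 1 to 4 and 149, 199, 292 and 195 CPM in cKO replicates 10 to 13, and the groups overlapped. Positive nuclei were 0 of 69 starburst, 0 of 370 glycinergic and 0.147% of RGC nuclei. After thinning to 2000 UMIs a Nos1 UMI was left in 17.5% of GABAergic and 0.371% of RGC nuclei.
The leading genes of the Nos1 nuclei were 3 cytochrome P450 genes of the Cyp2j family, namely Cyp2j5 (113 against 1.58 CPM), Cyp2j8 (564 against 15.8) and Cyp2j6 (83.4 against 5.44), followed by Stk32a and Pdzrn3 (219 against 27.9). The Cyp2j genes are close copies in 1 family, so reads may be divided among them in a way the counting sets. Zfhx3 was higher in Nos1 nuclei in 8 of 8 libraries (1370 against 434 CPM), and Tfap2b lower in 8 of 8 (102 against 320 CPM). Among Nos1 nuclei, 90 were also Tac2 positive (63.0 if independent) and 46 also Calb2 positive (23.2 if independent), counts that depend on depth. Per UMI, Nos1 was lower in Tac2 nuclei than in the others (139 against 242 CPM) and was higher there in only 1 of 8 libraries. In Calb2 nuclei Nos1 was higher in 8 of 8 (483 against 167 CPM).

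Cartpt, which encodes a peptide precursor, was the most uneven of these genes. In control replicates 1 to 4 Cartpt (chr13:100034990-100047006) was at 646, 314, 733 and 214 CPM, and in cKO replicates 10 to 13 at 292, 1453, 1073 and 440 CPM. cKO replicates 11 and 12 were above all control libraries and cKO replicates 10 and 13 were among them. The 10 nuclei with most Cartpt held 42.9% of its 4433 UMIs, and 1 nucleus had 273. At 2000 UMIs a Cartpt UMI was found in 18.4% of GABAergic, 17.5% of glycinergic and 22.1% of RGC nuclei, so the share with a UMI was no higher in GABAergic than in RGC nuclei.

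Many of the Cartpt UMIs were in nuclei with genes of dopamine synthesis. Th, which encodes tyrosine hydroxylase, the first enzyme of dopamine synthesis, was positive in 17 nuclei (1.65%) and in 0.0178% of RGC nuclei. Per library there were 2, 1, 3 and 0 in control and 1, 2, 3 and 5 in cKO. Of these 17, 15 were also positive for Cartpt, 15 for Slc18a2, the vesicular monoamine transporter gene, 11 for Ddc, which encodes the enzyme that converts L-DOPA to dopamine, and 10 for Nr4a2, a nuclear receptor gene of dopaminergic neurons. They held 50.4% of all Cartpt UMIs, with a median of 151 per nucleus. Gria1 was at 1467 CPM in them and 423 CPM in the others.
Nr4a2 nuclei were more numerous (62, 6.02%). Their leading genes were Gch1, which encodes the enzyme that starts synthesis of the cofactor of tyrosine hydroxylase (74.1 against 1.35 CPM), Trpc5 (334 against 7.31), Drd2, a dopamine receptor gene (92.7 against 2.17), Kitl (372 against 8.80) and Ddc (96.0 against 2.30), each higher in the 7 libraries with at least 5 such nuclei. Tlr4 was lower in Nr4a2 nuclei in 7 of 7 (5.06 against 176 CPM). Vip, the gene of vasoactive intestinal peptide, was positive in 11 nuclei, of which 5 were Nr4a2 positive.

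**Figure D3:**
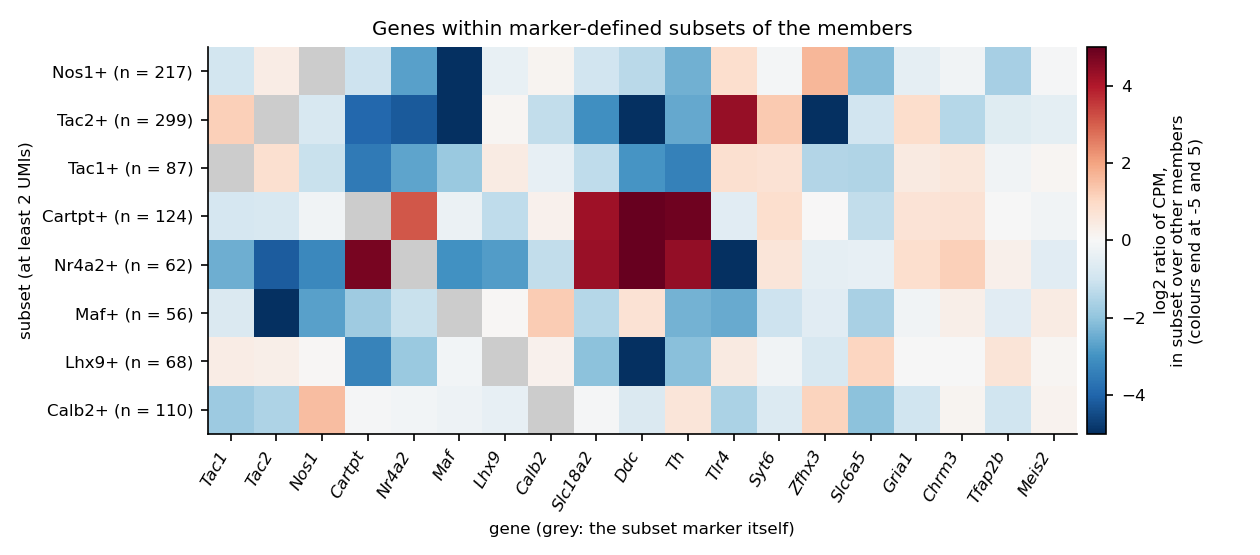
Level of 19 genes (columns) within 8 marker subsets of the GABAergic nuclei (rows), as the log2 ratio of CPM in the subset to CPM in the other GABAergic nuclei, with red for higher and blue for lower. Slc18a2, Ddc and Th are red in the Cartpt and Nr4a2 rows, Tlr4 is red in the Tac2 row, and Maf is at its lowest in the Nos1 and Tac2 rows.

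Maf, a bZIP transcription factor gene, set apart a smaller group of 56 nuclei (5.44%). None of them was Tac2 positive, where 16.3 would be met if independent, and 1 was Nos1 positive (11.8 if independent). The leading genes were Dytn (125 against 0.396 CPM), Best3, Adarb2, which encodes a relative of RNA-editing enzymes (5045 against 326 CPM), Antxr2 and Ell2, each higher in the 6 libraries compared. Prkca was lower in Maf nuclei in 6 of 6 (205 against 742 CPM).
Tac1, which encodes the precursor of substance P, was positive in 87 nuclei (8.45%) and in 0 of 69 starburst and 0 of 370 glycinergic nuclei, but in 4.33% of RGC nuclei. Of these 87, 46 were Tac2 positive (25.3 if independent). Calb2, the calretinin gene, marked 110 nuclei, led by the collagen gene Col25a1 (596 against 107 CPM), and Lhx9, a LIM homeobox gene, marked 68, led by Cbln2 (64.6 against 26.2 CPM). The peptide genes Npy and Sst were positive in 16 (1.55%) and 13 nuclei (1.26%). Npy was positive in 8.70% of starburst, 0.270% of glycinergic and 0.0979% of RGC nuclei and Sst in 0, 0.541 and 0.125%. Npy was at 7.80 ± 3.33 CPM in GABAergic and 68.7 ± 44.9 CPM in starburst nuclei, and did not pass the filter for a test.

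The 347 nuclei outside these 8 subsets had a lower median depth (5689 against 7718 UMIs) and held amacrine transcription factors. Meis2 was at 1711 CPM in them against 1399 CPM in the rest and Tfap2b at 407 against 204 CPM. Ntng1, which encodes netrin G1, led their genes (294 against 38.7 CPM), followed by Tshr (175 against 30.1), Nptx2 (61.5 against 10.6), Prox1 (53.0 against 9.58) and Gfra1 (165 against 31.6), each higher in 8 of 8 libraries. Slc6a5, the gene of the neuronal glycine transporter GlyT2, had at least 2 UMIs in 98 GABAergic nuclei (9.51%), of which 56 were in this remainder (33.0 if independent). The Slc6a5 nuclei, a group formed after its level had been seen, had 116 CPM of Slc32a1 against 118 CPM in the others, and they had more Olfm3 (1522 against 280 CPM) and Tshr (250 against 48.5 CPM) in the 7 libraries compared. At 2000 UMIs, 9.02% of GABAergic, 22.0% of glycinergic and 0.108% of RGC nuclei had a Slc6a5 UMI.

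GABAergic nuclei were then compared with glycinergic nuclei of the same libraries, on counts summed per library. With edgeR's quasi-likelihood test, a term for library and a call at adjusted p under 0.05 and log2 fold change beyond 1, 1134 of 6773 genes (16.7%) were called, of which 696 (10.3%) were higher and 438 (6.47%) lower in GABAergic nuclei. Named here are the 10 genes with the largest fold in each direction, with log2 fold change ± SE. Most of them passed the low-count filter only through the class where they are high, so folds are given without p-values. Tlr4 was higher, with 0 UMIs in glycinergic nuclei, which makes it at least 93.5-fold higher against a floor of 3 counts over the class. Dock2, which encodes an activator of Rac, also had 0 there (at least 72.7-fold higher). Syt6, a synaptotagmin gene, had 2 UMIs in glycinergic nuclei (pooled ratio 167, 95% interval 46.2 to 1381), Pde11a 1 (ratio 179, interval 32.0 to 7079), Cemip 3 (ratio 98.5, interval 33.6 to 478), Pappa2 1 (ratio 119, interval 21.3 to 4708) and the alpha-1B adrenergic receptor gene Adra1b 3 (ratio 79.7, interval 27.2 to 387). These intervals cover counting error alone. Kcnq5, a potassium channel gene, was at 492 ± 64.7 against 7.10 ± 11.2 CPM (log2 6.53 ± 0.29), and Csgalnact1 and Klhl1 were higher by log2 6.53 ± 0.27 and 6.19 ± 0.24. These rest on 9, 6 and 7 UMIs in glycinergic nuclei, and the log2 fold change was 7.72 for Kcnq5 without control replicate 4 and 7.24 for Csgalnact1 without control replicate 2.

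Lower in GABAergic nuclei were Spink13, at 4.62 ± 2.58 against 971 ± 147 CPM (log2 -7.79 ± 0.17), and Slc6a12, which encodes a betaine and GABA transporter and had 3 UMIs in GABAergic nuclei (pooled ratio 244, 95% interval 81.9 to 1195). Lamp5 (-6.08 ± 0.17), Ebf3 (-5.74 ± 0.30), St18 (-5.60 ± 0.26), Vegfc (-5.41 ± 0.26), Rnf182 (-5.18 ± 0.25), Prox1 (-5.18 ± 0.16) and Onecut1 (-5.10 ± 0.38) were lower as well. Ccdc24 (log2 -5.70 ± 0.16) was the remaining gene, but it lies within Slc6a9 on the other strand, and Slc6a9 chose the glycinergic class, so its value is uncertain. Genes were named only if they had the same direction in 8 of 8 libraries, so that agreement is set by the choice of these 20. Prox1 and Gjd2 (116 ± 33.5 CPM in glycinergic nuclei, log2 -2.87 ± 0.21) are known in AII amacrine cells, and Prox1 was at 776 ± 88.0 CPM, so the glycinergic nuclei compared here carried genes of that type.

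**Figure D4:**
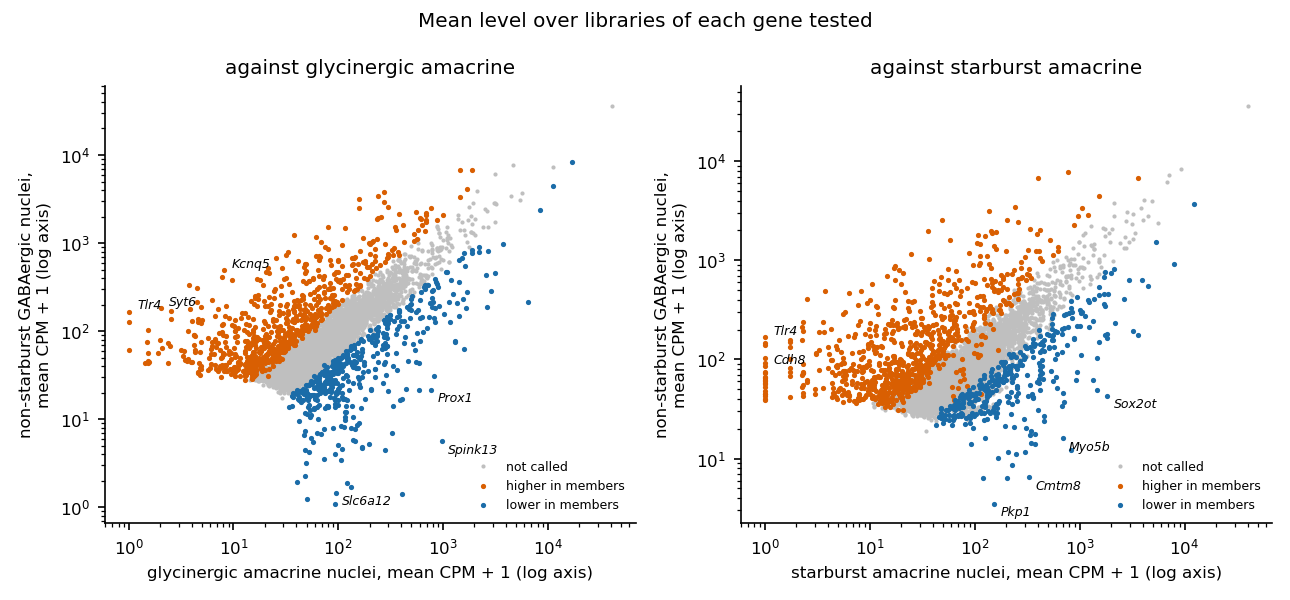
Mean CPM + 1 over libraries of each gene tested, in GABAergic nuclei (vertical log axis) against glycinergic (left panel) or starburst nuclei (right panel, horizontal log axes). Orange and blue points are genes called higher and lower in GABAergic nuclei, 696 and 438 against glycinergic and 811 and 337 against starburst nuclei. Tlr4 stands on the left edge of both panels.

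Against starburst nuclei, with the same test, 1148 of 5865 genes (19.6%) were called, 811 (13.8%) higher and 337 (5.75%) lower. Starburst sums were small, so genes high only in starburst nuclei may have passed the low-count filter less often. The higher and lower counts are therefore not weighed against each other. The median log2 fold change of all genes was 0.12 here and 0.30 under DESeq2's size factors, so values are read relative to that shift, and both comparisons share the GABAergic nuclei. Of the 10 genes with the largest fold upward, 9 are given here. They had 0 UMIs in the 69 starburst nuclei, and against the floor of 3 counts over the class they were at least 27.8-fold (Tlr4), 23.7-fold (Adra1b), 17.9-fold (Ptprm), 15.4-fold (the cadherin gene Cdh8), 12.6-fold (Dock11), 12.3-fold (Sncaip), 11.4-fold (Arhgap15), 10.2-fold (Pvt1) and 9.92-fold (Sytl5) higher. Lower in GABAergic nuclei were Sox2ot, a noncoding RNA gene over Sox2 (42.1 ± 29.7 against 1835 ± 332 CPM, log2 -5.46 ± 0.23), Myo5b (-5.43 ± 0.22), Pkp1 (-5.31 ± 0.36), Cmtm8 (-5.19 ± 0.29), Megf11, known for the spacing of starburst cells (48.1 ± 21.2 against 1475 ± 335 CPM, log2 -4.94 ± 0.22), Pdgfc, Moxd1, Hmga2, Lmo7 and the potassium channel gene Kcnk2 (-4.56 ± 0.27). Many of these 19 genes passed the low-count filter only through the class where they are high, so no p-value is read from them. The p-values of this comparison also lean on cKO replicate 11, which had 1 starburst nucleus. Without it the smallest adjusted p over all genes in the edgeR test went from 4.02e-105 to 9.66e-18. In that fit 751 genes were called higher and 418 lower.

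Gene lists are described by how many of their tested members were called, beside the percentages above for all genes. Some members, such as Gabra3 and Slc6a5 against starburst nuclei, passed the low-count filter only through the class where they are high. List counts are therefore description and are not read as results. For GABA synthesis and transport, 2 of 6 tested genes were higher than in glycinergic nuclei (among them Slc6a11, 191 ± 17.3 against 15.8 ± 9.77 CPM), and 3 of 6 higher than in starburst nuclei (Slc32a1, log2 1.25 ± 0.32, Slc6a11, 1.21 ± 0.26, and Abat, the GABA transaminase gene, 2.65 ± 0.44). None was lower in either comparison. Slc32a1 and Slc6a11 were higher than in starburst nuclei in 7 of 8 libraries, and the Slc6a11 call was lost with a Gad sum of at least 5.

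Subunits of GABA receptors divided by class. Of 10 tested against glycinergic nuclei, Gabra2, Gabrb1 and Gabbr2 were higher and Gabrg3 lower (189 ± 46.9 against 2613 ± 352 CPM, log2 -3.81 ± 0.12), with a list median of 0.65 against -0.01 for all genes. Of 11 tested against starburst nuclei, 5 were higher and 3 lower. Gabra3 was at 157 ± 14.7 CPM and had 1 UMI in starburst nuclei, and Gabrb2, Gabrg3 and Gabbr2 were higher as well, while Gabrd, the gene of an extrasynaptic subunit, was at 10.1 ± 3.92 against 247 ± 87.6 CPM (log2 -4.21 ± 0.27). Gabra2 was also lower (log2 -1.09 ± 0.19), a call that was lost under 4 of the settings tried, among them DESeq2 and leaving out cKO replicate 10. Of the glycine genes, Slc6a5 and Glra3 were lower than in glycinergic nuclei (log2 -1.54 ± 0.15 and -1.42 ± 0.17), and Slc6a5, Glra2 and Glra3 higher than in starburst nuclei, where Slc6a5 had 2 UMIs and Glra3 had 1.

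Of 19 glutamate receptor genes tested against glycinergic nuclei, 12 were called higher in GABAergic nuclei (63.2%, with 10.3% for all genes) and 0 lower. The list median was 1.83, and these counts are description. At an unadjusted edgeR p under 0.05, 13 were higher and 3 lower. The 12 called included Grin2a (487 ± 53.4 against 48.1 ± 35.3 CPM, log2 3.47 ± 0.24) and Gria1 (442 ± 48.7 against 90.2 ± 75.5 CPM, log2 2.51 ± 0.26). Against starburst nuclei 10 of 19 were higher and 2 lower, with a list median of 1.61, given as description. Grin2a (log2 5.06 ± 0.37, on 8 UMIs in starburst nuclei, and 6.50 without cKO replicate 10) was among those higher, and Grm3 (-1.30 ± 0.19) and Grm7 (-1.37 ± 0.20, in 7 of 8 libraries) were lower, with the Grm3 call lost under 2 settings. Chrm3, a muscarinic acetylcholine receptor gene, was at 329 ± 50.6 CPM, against 73.0 ± 46.6 in glycinergic (log2 2.18 ± 0.19) and 22.0 ± 49.1 CPM in starburst nuclei (log2 3.71 ± 0.33). The latter rests on 14 UMIs in starburst nuclei and was 6.98 without control replicate 2.

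Of 17 peptide genes 3 passed the filter on low counts, and Tac1, Tac2 and Nos1 passed it through the GABAergic nuclei, so no count is read from them. Nos1 was at 214 ± 52.6 CPM, with 5 UMIs in glycinergic and 1 in starburst nuclei. Of 15 transcription factor genes tested against glycinergic nuclei, 8 were higher (Tfap2a, Meis1, Meis2, Lhx9, Maf, Prdm8, Zfhx3 and Zfhx4) and 5 lower (Satb1, Ebf1, Ebf3, Tcf4 and Six3). Lhx9, with at least 2 UMIs in 68 GABAergic and 0 glycinergic nuclei, passed the filter through the GABAergic nuclei. These counts are therefore description, and no call is read from Lhx9. Meis2 was higher by log2 3.83 ± 0.15, and Tcf4 was at 127 ± 22.6 against 1158 ± 170 CPM (log2 -3.19 ± 0.10). Of 11 tested against starburst nuclei, Meis2 (log2 3.85 ± 0.27), Lhx9, Zfhx3 and Maf were higher and Six3 lower, with the Maf call lost under 8 settings, among them leaving out control replicate 1, 3 or 4 or any cKO replicate. Against glycinergic nuclei the Meis1 call was lost without control replicate 4 and the Prdm8 call without cKO replicate 10.

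The share of GABAergic nuclei was compared between genotypes as one measure of composition after the sort. Of all amacrine nuclei in the 3 classes, they made up 69.0, 66.5, 68.4 and 67.7% in control replicates 1 to 4 and 62.7, 81.3, 69.4 and 77.8% in cKO replicates 10 to 13. The cKO values spread more widely and lay on both sides of the control values, and the mean difference of 4.89 percentage points was not past the threshold (two-sided exact permutation test over 70 assignments, p = 0.314, smallest possible p 0.0286). Of all nuclei they were 1.89, 2.43, 2.52 and 3.87% in control and 2.59, 1.99, 2.13 and 4.43% in cKO (exact permutation p = 0.771). Without cKO replicate 10 the first difference was 8.25 points with exact permutation p = 0.0286 on the absolute difference, the smallest that 35 assignments can give, and 0.0571 as a doubled one-sided exact p. A share of sorted nuclei depends on how many RGCs the gate passed, and on depth, since the rule needs at least 3 Gad UMIs. The highest shares of all nuclei were in control replicate 4 and cKO replicate 13. Their GABAergic nuclei had the highest medians, 9578 and 8331 UMIs. With nuclei thinned to 2000 UMIs before the rule, 11 to 32 GABAergic nuclei per library were left. The differences were then 4.99 and 0.0668 points (exact permutation p = 0.514 and 0.629).

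Between genotypes, edgeR called 0 of 10244 genes in GABAergic nuclei (0.0%) at adjusted p under 0.05 and log2 fold change beyond 0.5. At an unadjusted p under 0.05 there were 430 genes (4.2%), and DESeq2 called 1, Lars2. The control and cKO libraries did not overlap for 309 genes (3.02%). In bulk sums of this kind, fewer nuclei of a subtype and less RNA per nucleus cannot be told apart.

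The genes with the smallest p are named as description. That p comes from these same libraries, so a lack of overlap between groups is set in part by the choice. Lars2, which encodes the mitochondrial leucyl-tRNA synthetase, was at 138, 164, 130 and 107 CPM in control replicates 1 to 4 and 217, 314, 196 and 245 CPM in cKO replicates 10 to 13. All cKO libraries were above all control libraries (log2 0.80 ± 0.15, edgeR adjusted p = 0.251, DESeq2 adjusted p = 0.0353). Ifrd1 was at 36.3, 42.3, 47.4 and 43.3 CPM in control and 84.1, 65.9, 91.8 and 78.2 CPM in cKO (log2 0.87 ± 0.16, edgeR adjusted p = 0.251). Cntn2, a contactin gene, was at 5.27 to 11.2 CPM in control and 18.6 to 25.2 CPM in cKO, and neither gene overlapped between groups. Control libraries alone would not have taken Cntn2 past the low-count filter, so no result is read from it.
On the lower side, Grik1, the gene of a kainate receptor subunit, was at 260, 292, 331 and 342 CPM in control and 185, 179, 170 and 239 CPM in cKO (log2 -0.69 ± 0.13, edgeR adjusted p = 0.286), and Olfm3 at 388, 500, 510 and 536 CPM against 354, 260, 236 and 366 CPM (log2 -0.70 ± 0.15, edgeR adjusted p = 0.484). Both had lower values in every cKO library than in every control library. Cpne8, Trpm3 and Erbb4 had log2 fold changes of -0.56, -0.39 and -0.55, with edgeR adjusted p of at least 0.888.

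Immediate early genes, which neurons switch on within minutes of activity or stress, had higher values in cKO for most of the list. Of 12 genes 8 could be tested, 0 were called, and 6 were higher at an unadjusted p under 0.05 (Fos, Fosl2, Junb, Egr1, Nr4a1 and Nr4a3), where 2.27% of all genes were, with a list median of 0.91 against 0.00 for all genes. Nr4a3 was at 34.4, 15.5, 10.5 and 39.6 CPM in control replicates 1 to 4 and 87.8, 35.8, 75.7 and 57.4 CPM in cKO replicates 10 to 13 (log2 1.40 ± 0.32, edgeR adjusted p = 0.822). Egr1 was at 19.1, 15.5, 2.11 and 36.9 CPM in control and 89.7, 24.5, 33.3 and 39.4 CPM in cKO. For both genes 1 or more cKO libraries lay within the control values. Summed over the 12 genes, control libraries had 256, 240, 157 and 276 CPM and cKO libraries 572, 303, 381 and 350 CPM, with no overlap, and cKO replicate 10 was the highest. Without it the list median was 0.66 and 2 of 8 genes were at an unadjusted p under 0.05. In the same fit 273 of 10287 genes were higher at that p. With a Gad sum of at least 5, 1 of 5 tested early genes was higher at that p, as were 148 of all 6583 genes. Without the low-count filter, edgeR called 4 of the 12 genes (Nr4a3, Egr1, Fosl2 and Fos, smallest adjusted p = 1.03e-07), among 27 called of 23325 genes.

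By subset of nuclei, pooled by genotype, the early gene sum was 325 CPM in control and 636 CPM in cKO in Tac2 nuclei, 284 and 538 CPM in Nos1 nuclei, 143 and 216 CPM in Maf nuclei and 144 and 266 CPM in nuclei outside the 8 subsets. The ratio of cKO to control ran from 1.21 in Slc6a5 nuclei, 1.32 in Tac1 nuclei and 1.35 in Nr4a2 nuclei to 2.44 in Lhx9 nuclei, with no test of the differences. With nuclei pooled in the same way, the share with an early gene UMI was 61.5% in control and 72.3% in cKO over all GABAergic nuclei. In Tac1 nuclei it was 92.9 and 77.8%. These pooled values give no spread between libraries, and nuclei are not replicates. RGC nuclei of the same libraries had 132, 119, 84.5 and 104 CPM in control and 148, 133, 142 and 149 CPM in cKO, also without overlap, and glycinergic nuclei had 72.7 to 102 and 83.1 to 157 CPM, with overlap. The rod marker sum given above was also higher on average in cKO and overlapped between groups. Its part in the early gene values was not tested.

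**Figure D5:**
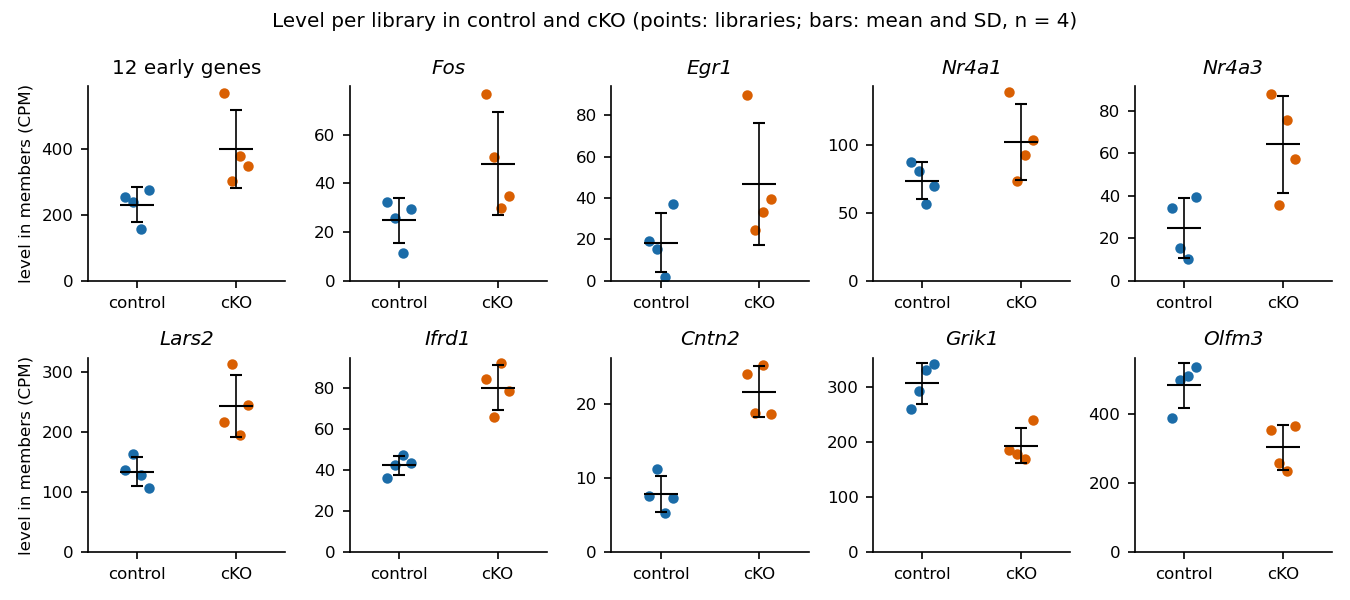
Level in GABAergic nuclei (members) of the sum of 12 immediate early genes and of 9 genes, in CPM, by genotype. Points are libraries, and bars give mean and SD (n = 4). The early gene sum, Lars2, Ifrd1, Cntn2, Grik1 and Olfm3 do not overlap between groups, and Fos, Egr1, Nr4a1 and Nr4a3 do.

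For the other lists, 0 genes were called between genotypes, and list medians lay between -0.41 and 0.35. Nr4a2 was at 30.6, 25.0, 25.3 and 17.5 CPM in control and 72.1, 32.0, 39.0 and 43.3 CPM in cKO (log2 0.96 ± 0.25, edgeR adjusted p = 0.908). These values did not overlap between groups, as for 3.02% of all genes. The early gene list holds Nr4a1 and Nr4a3 but not Nr4a2. The Nr4a2 subset was 4.52 ± 0.539% of GABAergic nuclei in control and 7.04 ± 2.63% in cKO (SD, n = 4 each). It is set by Nr4a2 UMIs, so more such nuclei and more Nr4a2 RNA per nucleus cannot be told apart. The Tac2 subset was 27.6 ± 3.97% and 30.6 ± 6.02%, the Nos1 subset 21.9 ± 1.87% and 20.1 ± 3.07% and the Maf subset 6.16 ± 1.85% and 4.61 ± 1.21%. Each of these 4 differences was smaller than the larger SD, and none was tested.

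The Piezo genes were near the detection limit. Piezo1 had 26 UMIs in all GABAergic nuclei (3.10 ± 1.92 CPM) and Piezo2 23 UMIs (2.96 ± 2.04 CPM), each in 2.04% of nuclei, and neither passed the filter for testing. Piezo2, the targeted gene, was at 1.91, 0.864, 2.11 and 3.69 CPM in control and 7.39, 3.76, 2.30 and 1.69 CPM in cKO, on 1 to 8 UMIs per library, so a change was not detectable at this depth. Per the study's methods the knockout removes part of the Piezo2 sequence. Counts here are per whole gene, so the deletion may also leave them unchanged. In RGC nuclei Piezo2 was at 13.4 ± 2.69 CPM and had a UMI in 6.63% of nuclei. A gene with no UMI in the 7976329 of the GABAergic nuclei could still be at up to 0.376 CPM, the level of 3 counts.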

How the data were processed

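Counts of UMIs per gene and barcode were deposited by the authors as raw matrices of 8 libraries, made with Cell Ranger 7.0.0 on GRCm39 per the labels. The authors removed free RNA in a later step, and those corrected values were not used here. Whether intronic reads were counted is not given in the sources used here. Gene positions are from GENCODE vM39.

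Nuclei and classes were set by UMI counts as described, with no clustering and no removal of doublets. The members and gene lists were chosen with earlier results of these data known. Counts were summed per library and class and tested with edgeR 4.0.16 (R 4.3.3) by the quasi-likelihood test after TMM scaling and filterByExpr, with Benjamini-Hochberg adjustment over all genes tested. Genes of the rule were left out of the class comparisons, which had library as a term. Named genes were the 10 largest folds in each direction per class comparison, the 5 smallest p in each direction for genotype, the 5 highest ratios per subset, and list members. In class comparisons, only called genes with the same direction in all libraries and at least 20 CPM in the higher class could be named. In subsets, only genes of at least 50 CPM that were higher in every library with at least 5 subset nuclei could be. Shares were compared by exact permutation. DESeq2 1.42.0, other filters, a Scrublet tail, thinning and leaving out each replicate were alternatives, and the tests were checked on simulated counts. Each library was a separate nuclei preparation from its own pool of retinae per the study's methods. For genotype and shares, p-values measure the spread between these pools. In the class comparisons they measure the spread over libraries of the difference between classes of the same library. Results for some genes are not reported here.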

Additional observations from a re-analysis of the deposited data

How the results depend on the processing

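No paired analysis was possible because control and cKO libraries share no replicate number. The library term in the class comparisons joins nuclei of 1 library. Without the low-count filter, 27 genes were called between genotypes, and DESeq2 called 1. Against glycinergic nuclei, 2557 genes were called without the filter and 372 with nuclei thinned to 1000 UMIs. Against starburst nuclei, 2389 were called without the filter, 526 with a Gad sum of at least 5 and 311 after thinning. The cause of these changes was not tested, but thinning and a higher Gad sum leave fewer UMIs or nuclei, and no filter adds genes. Leaving out each replicate gave 1109 to 1156 and 1030 to 1173 calls in the class comparisons and 0 between genotypes. The difference in share of amacrine nuclei was 2.08 to 8.25 points when leaving out each replicate, the highest without cKO replicate 10. The difference in share of all nuclei was -0.437 to 0.509 points, and turned negative without control replicate 1 (-0.151) and without cKO replicate 13 (-0.437). For single named genes, 175 of 186 values kept their side of the threshold for genotype, 850 of 853 against glycinergic and 763 of 782 against starburst nuclei, and 0 changed direction. A gene that did not pass the low-count filter under a setting has no value there, so these counts cover only genes still tested. Starburst values are limited by 69 nuclei, and Piezo genes by 1 to 8 UMIs per library.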
